A study of Nematostella vectensis with 17 samples.

Results

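The comparison described here is between gastrulae of the sea anemone Nematostella vectensis that had received a translation-blocking morpholino against brachyury and gastrulae that had received a control morpholino. PolyA RNA of whole embryos was sequenced. The libraries were chosen by their labels and not by any measured value. There were 6 libraries of the translation group and 4 of the control group, 10 of the 14 RNA-seq libraries and of the 17 samples of the series. A further 4 RNA-seq libraries came from embryos injected with a splice-blocking brachyury morpholino, and the other 3 samples were ChIP-seq. All embryos were at the gastrula stage and were raised at 21 °C.

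The translation morpholino (BraATGMO) was injected at 500 µM in 3 to 5 pl per embryo, per the labels. The labels give no sequence, dose or volume for the control morpholino, so a difference in dose between the groups cannot be told apart from an effect of the brachyury sequence. The labels name 6 biological replicates per group, and the 4 control libraries listed were used here. The label of translation library 3 spells its group with an extra letter and was read as translation. Libraries are numbered within their group in the order of the series, and the numbers pair nothing.

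Brachyury is a T-box transcription factor, named for the short tail of mouse mutants, that binds DNA directly and regulates the genes near its sites. In vertebrates it is known for its roles in mesoderm and notochord, and it works in a loop with Wnt signalling. In Nematostella, which has no separate mesoderm layer, it is expressed around the blastopore, the opening that becomes the mouth. A morpholino is an uncharged antisense oligomer that pairs with RNA and blocks ribosomes or the splicing machinery without cutting the RNA. A translation-blocking morpholino therefore need not lower the level of its own target RNA, and RNA-seq does not measure the protein.

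The sequence of the injected oligomer is shown because it defines the treated group, and the splice morpholino is shown beside it because both are used against the same gene. Each is 25 bases, given 5′ to 3′. The capitals mark the CAT triplet of BraATGMO, taken from the oligomer's name to pair with the start codon. In the complementary RNA site, written with T, they mark the ATG, which begins at base 12. BraSpliceMO also holds 1 CAT, left in lower case, with an ATG at base 8 of its complement.
BraATGMO: tcgtccgagtgCATgtccgactatg
complement of BraATGMO: catagtcggacATGcactcggacga
BraSpliceMO: tccctggttgtcaaccataccgtcc
Both oligomers hold 14 G or C bases, and the longest run of bases they share is 5. Where the site lies in the genome was not analysed here.

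Depth was 12289649 to 32175949 counts in the translation libraries and 15236154 to 80132810 in the control libraries. Of 25729 gene models, 22109 passed a filter on low counts and were tested. The files give gene model identifiers without names, and 0 of them matched the RefSeq gene table of assembly jaNemVect1.1. Brachyury itself, markers of gastrula tissues and genes of the Wnt pathway were therefore not analysed here as genes, and neither the knockdown nor the labelled tissue was checked. Only 2 identifiers are given in each direction. Levels are CPM, read counts per gene relative to the library total, scaled by TMM, a method that sets the libraries to a common level by trimming extreme genes. A gene was called at an adjusted p under 0.05 by edgeR's quasi-likelihood test with Benjamini-Hochberg adjustment over all genes tested. In whole embryos, fewer cells that use a gene and less of its RNA per cell cannot be told apart.

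Changes were many and mostly small. With the translation morpholino 2202 genes were called higher and 2238 lower, 9.96% and 10.1% of the genes tested and 20.1% together. Scaled by library size alone, 1785 were called higher and 2622 lower, with 522 and 707 of them over 2-fold. The median log2 fold change was 0.71 among genes called higher and -0.75 among genes called lower, and the middle 50% ran from 0.49 to 1.03 and from -1.01 to -0.55. Among the calls, the estimated change was over 1.5-fold for 1402 of the higher and 1576 of the lower genes. It was over 2-fold for 593 and 588 (2.68% and 2.66% of the genes tested). Past 4-fold there were 59 higher and 34 lower genes, and past 8-fold 6 and 2. These are estimates from calls against no change. Tested against a 1.5-fold minimum change instead, 279 genes were called higher and 211 lower. The median over all genes tested was -0.01.

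**Figure D1:**
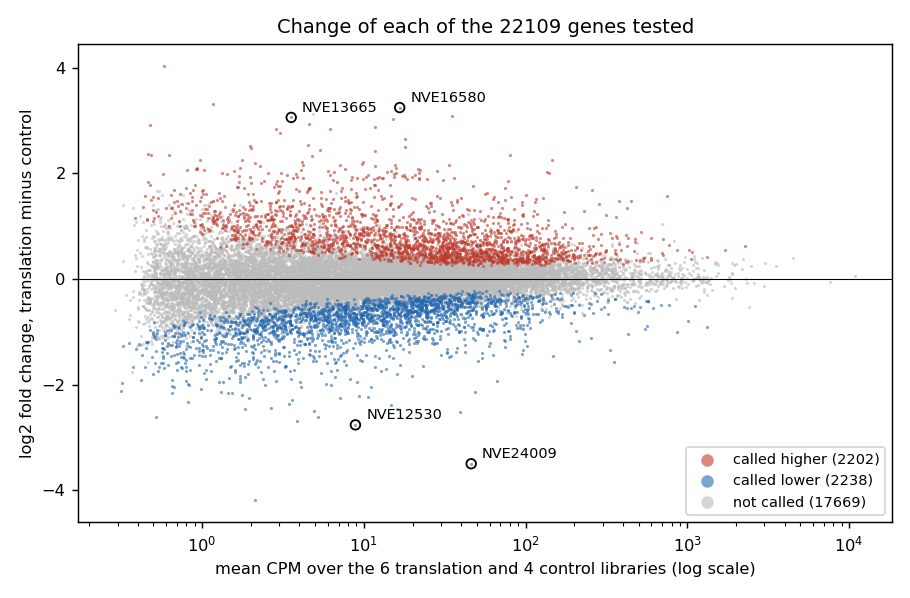
Log2 fold change (translation minus control, y axis) against mean CPM over the 10 libraries (x axis, log scale) for each gene tested; red and blue points are genes called higher (2202) and lower (2238), grey points are not called. The 4 circled genes are those described below, and most of the called genes lie within 2-fold of no change.

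Genes whose libraries did not overlap between groups made up most of the calls. In 1785 genes all 6 translation libraries lay above all 4 controls, and in 1919 all 6 lay below, which is 8.07% and 8.68% of the genes tested. Among the calls this held for 1535 of the higher genes (69.7%) and 1612 of the lower genes (72.0%). Among calls over 2-fold it held for 433 of 593 higher and 455 of 588 lower genes. The remaining calls rested on group means whose libraries overlapped.

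The named genes were the 2 highest and the 2 lowest fold changes among 2548 called genes whose groups did not overlap and whose higher group averaged at least 5 CPM. That their groups lie apart is therefore part of the rule and not a result. NVE16580 had the highest fold change of the 2548. Its level in the translation libraries was 26.4, 23.4, 23.6, 26.1, 24.6 and 31.0 CPM, against 1.28, 1.3, 7.01 and 1.97 CPM in the control libraries. The translation libraries were close to each other and all above the controls, while control library 3 was several times higher than the other controls. The group means were 25.8 ± 2.81 CPM (SD, n = 6) and 2.89 ± 2.77 CPM (SD, n = 4), a log2 fold change of 3.24 ± 0.38 (SE; edgeR adjusted p = 5.7e-05). Without control library 3 the log2 fold change was 4.12.

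NVE13665 was low in controls and uneven with the morpholino. It stood at 6.05, 2.40, 3.78, 13.7, 3.49 and 3.51 CPM in the translation libraries, against 0.586, 0.494, 0.753 and 0.809 CPM in the control libraries. By the rule every translation library was above every control, and translation library 4 was far above the other 5. The means were 5.49 ± 4.20 CPM (SD, n = 6) and 0.660 ± 0.146 CPM (SD, n = 4), and the log2 fold change was 3.06 ± 0.47 (SE; edgeR adjusted p = 0.00044). Without translation library 4 it was 2.55. The control values rested on 8 to 50 counts per library.

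The lowest fold change of the 2548 belonged to NVE24009, an abundant transcript in controls. It fell to 5.42, 7.27, 11.3, 5.44, 7.80 and 16.3 CPM in the translation libraries, against 133, 109, 85.2 and 80.6 CPM in the control libraries. The highest translation library was several times below the lowest control. The means were 8.92 ± 4.22 CPM (SD, n = 6) and 102 ± 24.1 CPM (SD, n = 4), an 11.3-fold lower level (log2 fold change -3.50 ± 0.30 SE; edgeR adjusted p = 2.9e-06).

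NVE12530 followed with a smaller level. Its translation libraries held 1.61, 1.58, 2.89, 1.61, 4.31 and 3.87 CPM, against 22.1, 17.5, 14 and 19.3 CPM in the control libraries. The lowest control was more than 3 times the highest translation library. The means were 2.65 ± 1.23 CPM (SD, n = 6) and 18.2 ± 3.40 CPM (SD, n = 4), and the log2 fold change was -2.76 ± 0.33 (SE; edgeR adjusted p = 5.5e-05). The gene was 6.79-fold lower. The functions of these 4 genes are not given in the files.

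**Figure D2:**
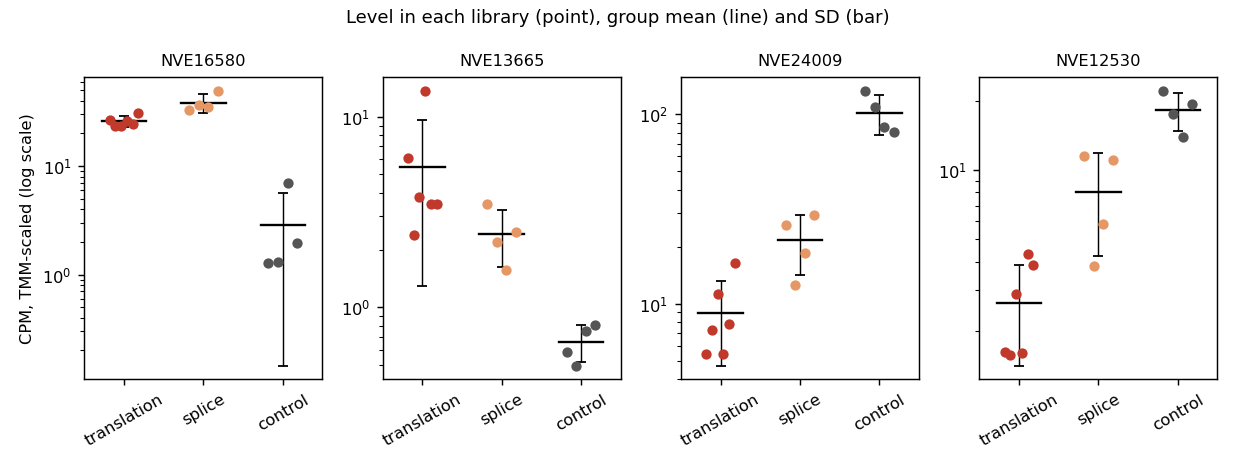
CPM (y axis, log scale) of the 4 named genes in each library (points) of the translation, splice and control groups, with the group mean (line) and SD (bar). By the rule that picked the genes, the 6 translation libraries lie on one side of the 4 controls in each. The single high points are control library 3 for NVE16580 (7.01 CPM) and translation library 4 for NVE13665 (13.7 CPM).

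Values with the splice morpholino stood between those of the other groups for 3 of the 4 genes. Both brachyury morpholinos were compared with the same 4 controls, so the values are given side by side. NVE16580 averaged 38.4 ± 7.39 CPM in the splice libraries (SD, n = 4), above its level with the translation morpholino. The splice minus translation log2 difference was 0.57, which was not called (edgeR adjusted p = 0.25). NVE13665 averaged 2.44 ± 0.802 CPM in the splice libraries (log2 difference -1.16, edgeR adjusted p = 0.076). NVE24009 at 21.7 ± 7.57 CPM and NVE12530 at 8.06 ± 3.84 CPM were higher in splice than in translation libraries, by 1.26 and 1.58 on the log2 scale (edgeR adjusted p = 0.011 and 0.0063). The genes were picked on the translation libraries, so part of any such difference follows from the choice.

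Over whole classes of calls the splice medians were also nearer to 0. For genes called higher over 2-fold the median log2 fold change against control was 1.31 for translation libraries and 0.99 for splice libraries. For genes called lower over 2-fold it was -1.24 for translation libraries and -0.56 for splice libraries. Set directly against each other, 2825 genes were called between the morpholinos (12.8% of those tested). Among the 593 genes, 138 were called lower with the splice morpholino and 6 higher. Among the 588 genes, 207 were called higher with the splice morpholino and 5 lower. These classes were selected on the translation libraries that enter the direct comparison, and nothing is read from the counts beyond their size.

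The split of the calls by direction varied with the level of the gene. The genes tested were divided into 3 equal classes by mean CPM over the 10 libraries. In the low class, up to 5.22 CPM, 494 genes were called higher and 749 lower. In the middle class 673 were called higher and 906 lower, and in the high class, from 25.3 CPM upward, 1035 and 583. Higher genes thus made up 39.7% of the calls in the low class, 42.6% in the middle class and 64.0% in the high class. Scaled by library size alone, these shares were 33.1%, 34.5% and 52.6%. The median log2 fold change of all genes in a class, called or not, was -0.08 in the low class, -0.03 in the middle and 0.05 in the high class. The share of genes called was 16.9% in the low class, 21.4% in the middle and 22% in the high class.

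The size of the called changes ran the other way. Among genes called higher the median log2 fold change was 1.1 in the low, 0.77 in the middle and 0.52 in the high class, and among genes called lower it was -1.0, -0.69 and -0.54. The median standard error of the log2 fold change moved with these sizes, at 0.28 in the low class, 0.17 in the middle and 0.13 in the high class. Of the 593 genes called higher over 2-fold, 291 were in the low and 115 in the high class. Of the 588 called lower over 2-fold, 374 were in the low and 58 in the high class.

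Few of the most abundant transcripts of the control gastrula were called. Of the 100 genes with the highest control mean (at least 924 CPM), 3 were called higher and 5 lower, or 8%, against 20.1% of all genes tested. Their log2 fold changes ran from -1.01 to 0.62 with a median of -0.01, and 1 fell over 2-fold. Together these genes held 16.1% of the scaled counts in translation embryos and 16.4% in control embryos.

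The RNA that moved was a modest part of the whole. Genes called higher made up 13.5% of the scaled counts in translation embryos and 9.08% in control embryos. Genes called lower made up 5.16% in translation embryos and 8.41% in control embryos. The genes changed over 2-fold were mostly weakly expressed: those called higher had a median of 7.15 CPM in translation embryos and 2.63 CPM in control embryos, and those called lower 1.8 CPM and 4.7 CPM. They held 1.76% of the scaled counts in translation embryos against 0.702% in control embryos when higher, and 0.494% against 1.22% when lower.

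At the low end, 101 genes lay under 1 CPM in every control library and were called higher over 2-fold (0.457% of the genes tested). Their median level was 1.23 CPM in translation embryos and 0.425 CPM in control embryos, and 1 of them averaged at least 5 CPM with the morpholino. In the other direction, 130 genes lay under 1 CPM in every translation library and were called lower over 2-fold (0.588%). Their medians were 0.428 CPM in translation embryos and 1.11 CPM in control embryos, and 0 reached 5 CPM in controls. Of all these genes, 0 had no count in any library of the lower group. The groups did not overlap for 55 of the 101 and 78 of the 130 genes. Without control library 1, 58 near-silent genes were called higher in place of 101, and 55 lower in place of 130.

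Each library was then followed over the genes called at over 2-fold. The genes were chosen on these same libraries, so the direction is fixed by the choice and the sizes only describe how evenly the libraries contributed. Over the 593 higher genes the median log2 difference from the control mean was 1.36, 1.23, 1.32, 1.49, 1.19 and 1.35 in translation libraries 1 to 6, and -0.22, -0.24, 0.30 and 0.20 in control libraries 1 to 4. Over the 588 lower genes it was -1.35, -1.13, -1.10, -1.83, -1.05 and -1.12 in the translation libraries, and 0.21, 0.07, -0.15 and -0.11 in the controls. Translation library 4 was the farthest from the controls in both sets. Control libraries 3 and 4 lay toward the translation side in both sets, and control libraries 1 and 2 away from it.

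**Figure D3:**
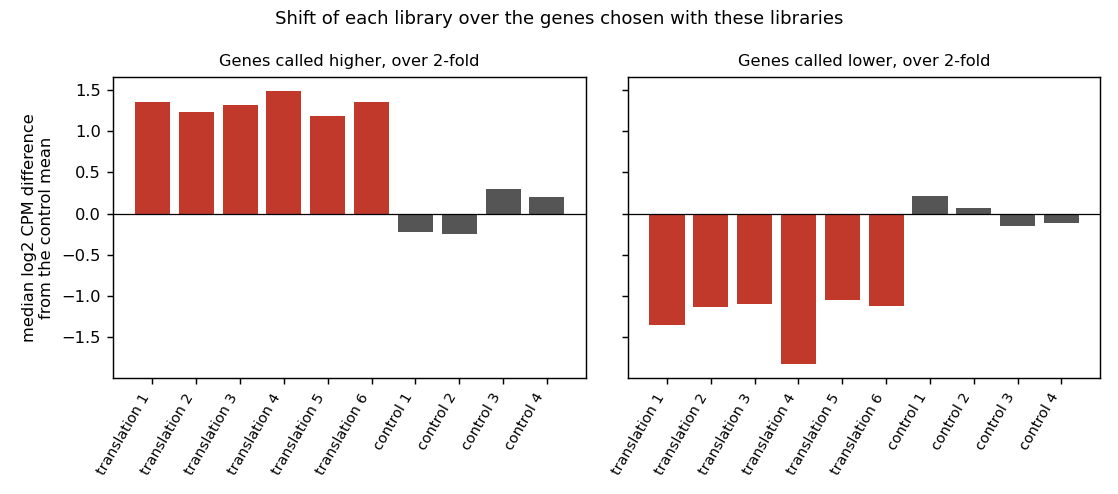
Median log2 CPM difference of each library from the control mean (y axis) over the 593 genes called higher and the 588 called lower at over 2-fold; red bars are translation libraries, grey bars control libraries. Translation library 4 has the longest bar in both panels, and control libraries 3 and 4 lean toward the translation libraries.

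The same order appeared over all genes tested. The root mean square log2 difference between 2 libraries was 0.427 to 0.681 for the 15 pairs of translation libraries, 0.380 to 0.549 for the 6 pairs of controls and 0.517 to 0.887 for the 24 pairs across groups. The closest pair across groups was translation library 5 and control library 3, at 0.517, which is below the median of the translation pairs (0.555). The first principal component of the 10 libraries carried 39.3% of the variance. All 6 translation libraries had negative scores on it, from -62.7 to -16.5, and all 4 controls had positive ones, from 32.3 to 58.0. The median SD of log2 CPM within a group was 0.27 in translation libraries and 0.22 in controls.

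No difference in the make-up of whole libraries passed the threshold. Genes at 1 CPM or more numbered 20083 ± 173 in translation libraries (SD, n = 6) and 20214 ± 143 in controls (SD, n = 4; exact permutation test, two-sided, p = 0.26, adjusted p = 0.39). The 100 most abundant genes of each library took 16.6 ± 0.587% of the counts in translation libraries and 16.5 ± 0.782% in controls (exact permutation p = 0.79, adjusted p = 0.79). Genes under 10 CPM took 3.65 ± 0.168% of the counts in translation libraries and 3.8 ± 0.187% in controls (exact permutation p = 0.20, adjusted p = 0.39). Adjustment was over these 3 tests, and 210 splits allow a smallest p of 0.0048. With every library thinned to the shallowest, the differences were -122.5 genes, 0.109 and -0.143 percentage points, against -130.2, 0.112 and -0.150.

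How far the calls rested on single libraries was measured by leaving out each of the 10 in turn. Of the 4440 calls, 2194 (49.4%) were made the same way in all 10 repeats, and of the 1181 calls over 2-fold, 848 (71.8%). Leaving out a translation library kept 3674 to 3907 of the calls. Leaving out control library 1, by far the deepest, kept 2436. Leaving out control library 2, the shallowest control, kept 2806. Translation library 6, the deepest of its group, cost the fewest calls, with 3907 kept when it was left out. Whether depth, or the smaller number of controls, had a part in these losses was not tested. Leaving out control library 3 or 4 kept 3687 and 3434. The total counts of calls were 2454 without control library 1 and 2841 without control library 2.

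**Figure D4:**
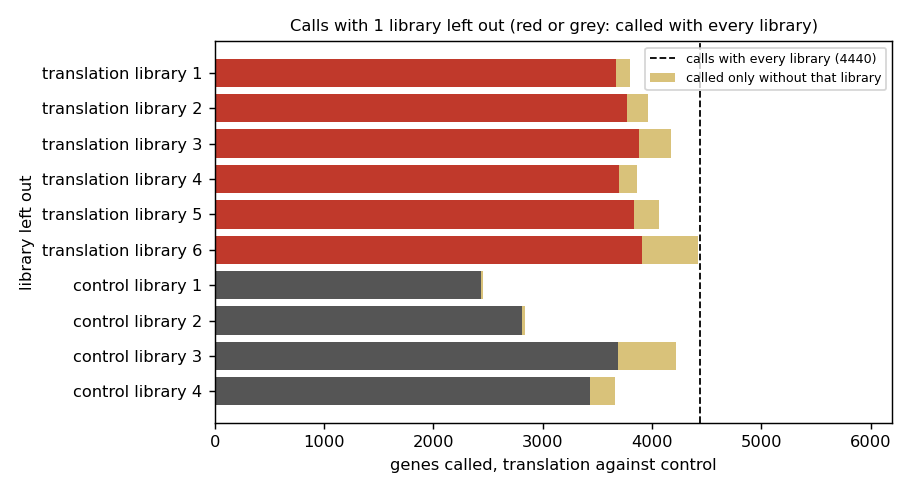
Genes called (x axis) with each library left out in turn (y axis); the red or grey bar counts genes that were also called with every library, the yellow bar genes called only in that repeat, and the dashed line marks 4440. Without control library 1 or 2 the count falls to 2454 and 2841, while with 1 translation library left out it stays at 3795 or more. The control group is the smaller, with 4 libraries against 6.

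The libraries carry running numbers in their titles, beside index sequences, and the numbers were used to form 2 parts. Those numbered up to 52970 (3 translation, 2 control) and the later ones (3 and 2) were fitted separately, each without the splice libraries. The earlier part held translation libraries 1 to 3 and control libraries 1 and 2, the controls that lay away from the translation side above. Scores on the second principal component (19.0% of the variance) were negative for every earlier library, from -28.3 to -6.65. They were positive for the later libraries, from 7.99 to 50.9, except translation library 4 at -28.4. By edgeR the later libraries gave 0 calls (0%), although 3506 genes had an unadjusted p under 0.05. DESeq2 called 743 genes there and limma-voom 0. The earlier libraries gave 4864 calls by edgeR (22.2% of the genes tested in them), 2620 higher and 2244 lower. The median absolute log2 fold change over all genes was 0.28 in the later libraries and 0.30 in the earlier ones, while its median standard error was 0.26 in the later and 0.18 in the earlier ones. Pairs of translation libraries differed by a median of 0.631 in the later part and 0.440 in the earlier part, on the root mean square log2 scale.

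Genes called in the earlier libraries could be measured in the later ones, which had no part in choosing them. The sign was the same for 2358 of 2598 genes called higher (90.8%) and 2077 of 2207 called lower (94.1%). The medians of the higher genes were 0.47 in the later and 0.84 in the earlier libraries, and those of the lower genes -0.55 in the later and -0.80 in the earlier ones. In the later libraries 1010 of the higher and 1029 of the lower genes were past 1.5-fold in the same direction. The same shares over all genes tested were not computed, so these counts stand without a background. For the named genes, the log2 fold changes in the later and earlier libraries were 2.63 and 4.25 for NVE16580, 3.12 and 2.87 for NVE13665, -3.04 and -3.95 for NVE24009, and -2.32 and -3.32 for NVE12530. Unlike the genes above, these 4 were picked on the libraries of both parts, so their direction in the later libraries follows from the choice. None of the 4 was called in the later libraries alone (edgeR adjusted p = 0.085, 0.14, 0.055 and 0.077).

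**Figure D5:**
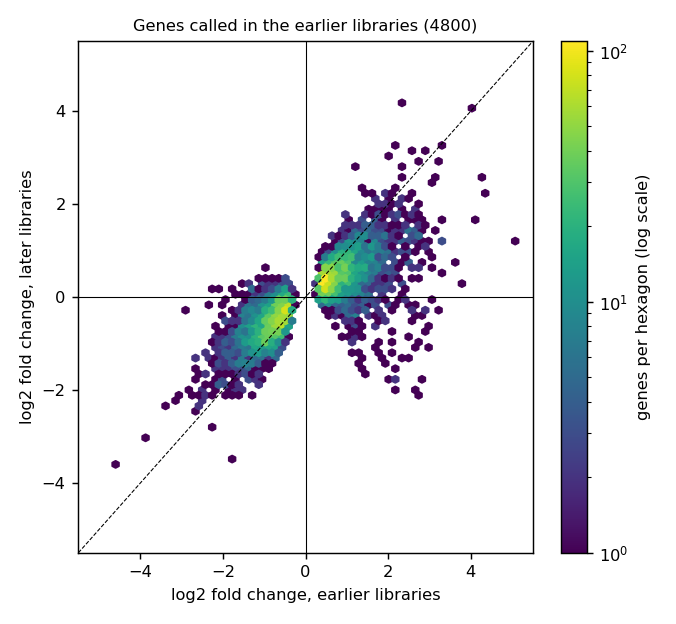
Log2 fold change (translation minus control) in the later libraries (y axis) against the earlier libraries (x axis) for 4800 genes called in the earlier ones and tested over all libraries; colour is the number of genes per hexagon on a log scale and the dashed line marks equal values. Most genes keep their sign (92.3% of the 4805 called in the earlier libraries and tested in the later ones, a slightly larger set than drawn). A small group at the lower right is lower in the later and higher in the earlier libraries.

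A small group of genes, chosen after their values were seen, went opposite ways in the parts. Of the genes called in the earlier libraries, 45 were over 1.5-fold lower in the later and over 1.5-fold higher in the earlier ones, with median log2 fold changes of -1.08 and 1.75, and 1 gene did the reverse. Their median level was 2.36, 2.78, 6.27, 1.01, 1.54 and 1.29 CPM in translation libraries 1 to 6 and 1.1, 1.3, 1.68 and 4.6 CPM in control libraries 1 to 4. Translation library 3 and control library 4 were the high ones in their groups, and 0 of the 45 genes were called over all libraries. Both features follow in part from how the genes were chosen. In splice libraries 1 to 4 the median level was 4.06, 2.01, 5.31 and 5.04 CPM. The difference between the parts was tested as an interaction. By edgeR 0 of the 21902 genes tested were called (0%), and 1386 of them had an unadjusted p under 0.05. By DESeq2 67 genes were called, a count that stands here without its background.

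With the part as a further term in a fit of the 10 libraries, 2470 of 21902 genes tested were called higher and 2478 lower. The part itself, later against earlier, was called for 48 of the 21902 genes. The numbers may mark order of preparation, sequencing or neither, and their part in the results was not tested further.

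The authors' deposited table gave log2 fold changes of 3.20 for NVE16580, 3.07 for NVE13665, -3.50 for NVE24009 and -2.76 for NVE12530. That table calls 722 genes that were tested but not called here. Their median absolute log2 fold change by edgeR was 0.47, against 0.73 for the 4409 genes called in both.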

How the data were processed

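The authors deposited 1 table with raw counts per gene model and library, for 25729 gene models. A further 92 spike-in rows, all at 0, were dropped. Per the submitters' processing notes, the tools included STAR 2.5.3a, cutadapt 1.8.1, Subread 1.6.2 with featureCounts, and DESeq2 1.6.0; their roles are not stated. Annotation and strand setting of the counting are not given in the sources used here. Antisense, overlapping and near-identical genes were therefore not separated. The group means deposited by the authors, a rounded score, served only to identify their comparison. Their deposited ratio (fold change), log2 fold change and adjusted p-value columns are translation against control: over 11009 genes with both means at 200 or more, log2 of the ratio of means differed from the deposited log2 value by at most 0.02. No column of per-sample values lacked a sample (0 columns).

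Counts of all 14 RNA-seq libraries were fitted with edgeR 4.0.16 in R 4.3.3 (filterByExpr, TMM, group means, quasi-likelihood test, 11 residual degrees of freedom). The same fit was later run on counts simulated from its own estimates, and the outcome is not reported here. Tests were two-sided. SE is the absolute log2 fold change over the square root of F, and a prior count of 2 entered log2 CPM. DESeq2 1.42.0 and limma 3.58.1 (voom) were alternatives. Library values were compared by exact permutation. Replicates are biological per the labels. Within each group every pair of libraries differed beyond sampling noise (chi-square per degree of freedom 8.24 to 53.7). The genes named are the 2 highest and 2 lowest called fold changes whose libraries do not overlap between groups and whose higher group averages at least 5 CPM. Members, rules and tests were chosen with earlier results of these data known.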

Additional observations from a re-analysis of the deposited data

Results flagged for a closer look

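In 4 of the 16 sets of values examined, 1 library stood apart from the others of its group by Dixon's criterion. For independent sets of normally distributed values chance gives about 1 in 20, or 0.8 of 16. Here the sets share libraries, and those of the named genes hold genes picked on these same libraries. The 4 flags are therefore not compared with the 0.8. In total counts, on the log10 scale, translation library 6 (gap over range 0.639) and control library 1 (0.863) stood apart as the deepest of their groups. For NVE16580, control library 3 stood apart at 7.01 CPM (0.879), where the next control held 1.97 CPM. For NVE13665, translation library 4 stood apart at 13.7 CPM (0.677), where the next translation library held 6.05 CPM. Each library was left out in turn, and the 3 library-level differences were also taken at equal depth, where none passed the threshold.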

How the results depend on the processing

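Under RLE size factors, library size alone, DESeq2, limma-voom, no low-count filter, the 10 libraries alone and a library number covariate, the counts of calls (4364 to 5487) and of calls over 2-fold stayed within 1.5 times, and 3666 of the 4440 calls were kept in all of these and with the title-number part as a term, which was added after seeing the data. An adjusted p under 0.01 left 1915 calls and a 1.5-fold minimum change 490. A filter of 5 CPM in 4 libraries, which drops weakly expressed genes, left 3580 calls, 607 of them over 2-fold. With the splice libraries in the fit, libraries numbered above 52970 gave 19 calls, also 19 over 2-fold, and those up to it 3005. Near-silent at 2 CPM gave 202 genes higher and 248 lower. Leaving out 1 library gave 2454 to 4418 calls, 825 to 1379 over 2-fold, and 58 to 134 and 55 to 154 near-silent genes. Genes without overlap numbered 3989 to 5346 in these repeats, against 3704 with every library. Fewer libraries leave less room for overlap, so this rise follows largely from the omission. The next ranges are also from these repeats. The difference in the share of the 100 most abundant genes ran from -0.136 to 0.419 percentage points and that of genes under 10 CPM from -0.242 to -0.0956. With library size alone the latter was 0.00288, against -0.150, neither called. The named genes kept their direction wherever they were tested, and NVE13665 did not pass the filter of 5 CPM in 4 libraries. In the later libraries, fitted with the splice library among them, adjusted p by edgeR was 0.0782 for NVE16580, 0.133 for NVE13665, 0.0499 for NVE24009 and 0.0752 for NVE12530; without it they were 0.085, 0.14, 0.055 and 0.077, so that NVE24009 was called only with it. No paired analysis was possible because the labels carry no replicate numbers. The median standard error of the log2 fold change was 0.28 in the low level class and 0.13 in the high class.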
